A study of Rattus norvegicus with 30 samples.

Results

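Cyp2e1, Aqp7 and Defb1 are 3 genes whose transcripts were lower in the left ventricle of sucrose-fed rats than of chow-fed rats, and they were chosen from 26785 genes on the array because of that difference. The sucrose against chow contrasts of these same 30 arrays chose them, so their diet differences are given as descriptions with no test. Each gene was read from 1 probe, found through the probe's transcript accession. Their contrasts between perfused and non-perfused hearts, averaged over both diets, played no part in the choice and were tested for Cyp2e1 and Aqp7. For Defb1 they are described without a test, for a reason given with its values.

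Cyp2e1 is a cytochrome P450 of the endoplasmic reticulum that oxidises ethanol, acetone and other small molecules as well as fatty acids. It is best known from the liver, where fasting, ketosis and diabetes raise it. Aqp7 is an aquaglyceroporin, a membrane channel that passes glycerol as well as water; it releases glycerol from adipocytes and is also present in the heart, where glycerol can serve as a fuel. Defb1 is beta-defensin 1, a small cationic antimicrobial peptide that epithelia secrete constitutively, and the kidney is a known source of it.

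RNA of the left ventricle was hybridised to 1-colour Agilent arrays, 1 array per sample; the rats were Sprague Dawley males, 16 to 18 weeks old, and all had been under chloral hydrate anesthesia. They ate LabDiet 5001 chow or, over 8 to 10 weeks, the high-sucrose diet Research Diets D11725, which was meant to make them resistant to insulin. Their hearts were frozen without perfusion or worked outside the body for 60 min, with the ventricle ejecting against a pressure load. Every perfused heart received hydroxybutyrate at 10 mmol/L, acetoacetate at 1 mmol/L and propionate at 2 mmol/L. To these was added glucose at 25 mmol/L or, to control for osmolarity, mannitol, a sugar alcohol, also at 25 mmol/L. The 6 groups (chow or sucrose; non-perfused, mannitol or glucose) had 5 arrays each, and this number limits the precision. Values are log2 signal relative to the 75th percentile of the array, so 0 is the level that 75% of the probes of that array stay under.

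Between 48.8% and 75.4% of the probes of an array were well above background, and on 4 arrays the negative control spots had an SD over 8 intensity units. These were replicate 2 of the chow hearts without perfusion, replicates 1 and 5 of the sucrose hearts without perfusion, and replicate 5 of the sucrose hearts with mannitol. All groups were present on 4 slides. Sucrose mannitol replicate 1 lay alone on the remaining slide and went against its diet label for 2 of the 3 genes, with the highest Cyp2e1 value and the second highest Aqp7 value of all 30 arrays. With slide as a block, this array adds nothing to any difference below. Non-perfused and chow mannitol arrays always occupied row 1 of a slide and glucose arrays always row 2, whereas 4 of the 5 arrays of sucrose hearts with mannitol were in row 2. Diet within the non-perfused and within the glucose hearts is therefore compared in 1 row, and row and glucose perfusion cannot be told apart. The mannitol array of a sucrose heart in row 1 is the array alone on its slide. In the fit, therefore, all sucrose mannitol arrays that count are in row 2 and all chow mannitol and non-perfused arrays in row 1, so row cannot be told apart from diet within the mannitol hearts, nor from mannitol perfusion of sucrose hearts. Of 13 cardiomyocyte markers tested, such as Myh6, Tnnt2 and Ryr2, none passed the test for the mean diet difference at an adjusted p of 0.05 in limma. An unadjusted limma p under 0.05 was found for 3 of the 13, and 11 were lower in sucrose hearts (median -0.05). Over all 18333 genes tested, 0.0382% passed and 1626 had an unadjusted limma p under 0.05. This is the background for the diet counts of every list below.

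Of the 3 genes, Cyp2e1 was matched in RefSeq's table of promoters, and its upstream sequence is shown because Cyp2e1 differed with both diet and perfusion. The 250 bases before the RefSeq start are chr1:205269717-205269966 on the plus strand of GRCr8, directly upstream of the gene. In capitals is TATAAA, an exact match to the TATA box motif. The capitals ATTGG are an exact match to the CCAAT box motif read on the other strand. Also in capitals is AGGTCA, the core motif of many nuclear receptors.
Cyp2e1 promoter: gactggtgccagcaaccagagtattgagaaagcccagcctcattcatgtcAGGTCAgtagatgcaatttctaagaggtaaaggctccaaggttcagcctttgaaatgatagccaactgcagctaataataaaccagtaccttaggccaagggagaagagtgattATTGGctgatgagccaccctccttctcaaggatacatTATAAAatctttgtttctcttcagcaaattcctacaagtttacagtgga
TATAAA began 49 bases before the start, ATTGG 86 bases before and AGGTCA 200 bases before. On either strand TATAAA was present in 12.9% of 33469 rat promoters of this length, CCAAT in 34.0% and AGGTCA in 14.1%, so each is a common match. The direct repeat that PPAR and RXR receptors bind, searched as 2 copies of AGGTCA with any 1 base between them, was found in 0.0508% of promoters and not in this window. GTTAAT, the core of the HNF1 motif known from liver genes, was in 6.45% of promoters and likewise had no exact match in this window. Only exact copies were searched, so PPAR or HNF1 sites that differ from these strings by some bases may be present. The motifs in capitals did not overlap each other here, and no motif was tested for function.

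Cyp2e1 was a moderately bright signal that changed with both diet and perfusion. Its probe is printed 10 times on each array, read 303 to 2428 intensity units, and was well above background on 30 of 30 arrays. The SD between its spots on an array had a median of 0.15 on the log2 scale, against a residual SD of 0.35 between rats. In chow hearts without perfusion its level was 0.07, -0.18, -0.35, -0.82 and -0.29 in replicates 1 to 5 (mean -0.31 ± 0.32, SD, n = 5). The sucrose hearts without perfusion read -1.11, -1.33, -0.56, -0.56 and -1.08 (-0.93 ± 0.35, SD, n = 5). All 5 sucrose hearts lay under the chow median and 3 of them under the lowest chow heart, so the ranges overlapped at chow replicate 4.

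With mannitol the chow hearts formed a tight group at 0.76, 0.32, 0.42, 0.64 and 0.60 (0.55 ± 0.17, SD, n = 5). Sucrose hearts with mannitol read 0.98, -0.82, -0.42, -0.17 and -1.08 (-0.30 ± 0.80, SD, n = 5). Replicate 1, the array alone on its slide, exceeded every chow heart, while the other 4 lay under every chow heart, with a mean of -0.62 ± 0.41 (SD, n = 4).

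With glucose the chow hearts split, with replicates 1 and 2 at 0.86 and 0.73 and the others at 0.15, 0.14 and -0.07 (0.36 ± 0.41, SD, n = 5). Sucrose hearts with glucose read 0.02, -0.94, -0.36, 0.02 and 0.05 (-0.24 ± 0.43, SD, n = 5). All 5 were under the chow median of that state, but only 2 were under its lowest chow heart.

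Aqp7 was the brightest and least variable of the probes, at 4621 to 12420 intensity units and well above background on 30 of 30 arrays. Its 2 spots per array differed with a median SD of 0.07, and the residual SD between rats was 0.13. In non-perfused chow hearts its level was 3.08, 3.28, 3.22, 3.47 and 3.26 (3.26 ± 0.14, SD, n = 5). In non-perfused sucrose hearts it was 2.71, 3.06, 3.14, 2.67 and 2.94 (2.91 ± 0.21, SD, n = 5). Only sucrose replicate 3 reached into the chow range, above chow replicate 1.

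Chow hearts perfused with mannitol read 3.05, 3.12, 3.10, 3.04 and 2.93 for Aqp7 (3.05 ± 0.07, SD, n = 5). Their sucrose counterparts read 3.33, 2.53, 2.64, 2.64 and 3.12 (2.85 ± 0.35, SD, n = 5). Replicates 2, 3 and 4 lay under all chow hearts, replicate 5 lay among them, and replicate 1, alone on its slide, lay above them; the mean without it was 2.73 ± 0.26 (SD, n = 4).

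With glucose, Aqp7 in chow hearts was 3.09, 3.21, 3.20, 3.27 and 3.06 (3.17 ± 0.09, SD, n = 5). In sucrose hearts it was 3.04, 2.71, 3.10, 2.48 and 2.93 (2.85 ± 0.26, SD, n = 5). Here 4 of 5 sucrose hearts were under the lowest chow heart and replicate 3 was inside the chow range. In each state the sucrose hearts spread more widely than the chow hearts.

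Defb1 was barely measurable in this tissue. Its signal was 6.30 to 93.1 intensity units, and the probe was well above background on 11 of 30 arrays: 4 of 5 in the chow non-perfused group, 2 of 5 in the sucrose non-perfused, chow mannitol and chow glucose groups each, 1 of 5 in the sucrose mannitol group and 0 of 5 in the sucrose glucose group. It entered the table of tested genes only through the chow non-perfused group, where it is highest, so a difference from that group was built into its inclusion and its contrasts are given without a test. Both of its spots were well above background on 4 chow non-perfused arrays, 1 sucrose non-perfused array and 1 chow glucose array. The median SD between its spots was 0.27, with a highest value of 1.30, against a residual SD of 0.52 between rats.

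In chow hearts without perfusion Defb1 read -3.28, -4.72, -4.11, -4.13 and -4.11 (-4.07 ± 0.51, SD, n = 5). In sucrose hearts without perfusion it read -5.70, -5.64, -4.36, -6.96 and -5.72 (-5.68 ± 0.92, SD, n = 5). Sucrose replicate 3 lay above chow replicate 2, itself an array of high control spread, and the other 4 sucrose hearts lay under all chow hearts.

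With mannitol the diets were mixed. Chow hearts read -5.84, -5.11, -6.11, -5.40 and -5.63 (-5.62 ± 0.39, SD, n = 5), and sucrose hearts -6.65, -6.40, -5.20, -5.81 and -4.29 (-5.67 ± 0.95, SD, n = 5). The sucrose hearts covered the whole chow range, and without the array alone on its slide their mean was -5.42 ± 0.90 (SD, n = 4).

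With glucose, chow hearts read -4.67, -5.14, -5.71, -4.15 and -5.54 for Defb1 (-5.04 ± 0.64, SD, n = 5). Sucrose hearts read -6.51, -6.69, -6.28, -7.06 and -6.57 (-6.62 ± 0.28, SD, n = 5), none of them well above background. This was the only state and gene of the 9 in which all sucrose hearts lay under all chow hearts, which 0.338% of all genes tested also did with glucose (0.262% did without perfusion and 1.31% with mannitol).

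**Figure D1:**
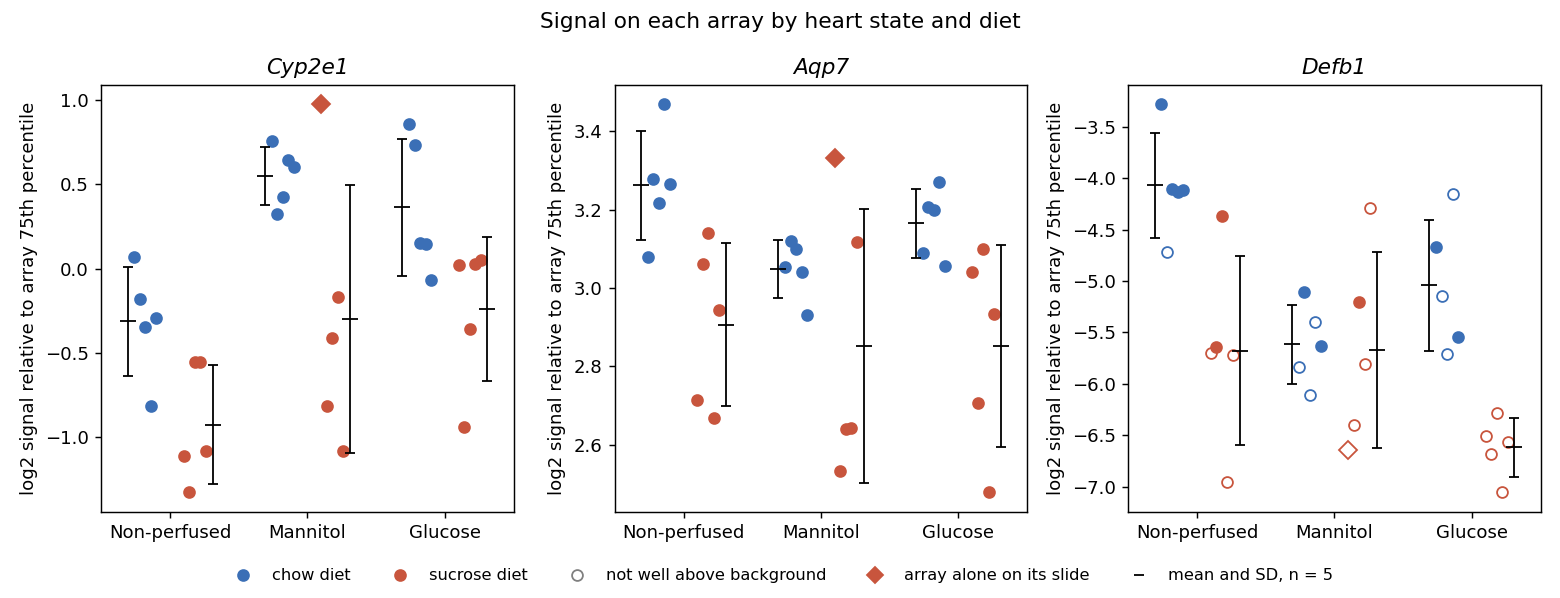
Log2 signal of Cyp2e1, Aqp7 and Defb1 relative to the 75th percentile of each array (y axis) in 6 groups of 5 arrays (x axis: heart state; blue, chow; red, sucrose); open symbols are not well above background, the diamond is the array alone on its slide, and bars are mean and SD. Sucrose means sit below chow means in each state, but for Defb1 with mannitol they are nearly equal (chow -5.62, sucrose -5.67, or -5.42 without the array alone on its slide), and the diamond stands at the top of the Cyp2e1 panel at 0.98.

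The order of the group means differed between the genes. Cyp2e1 was highest in chow mannitol hearts, followed by chow glucose, sucrose glucose, sucrose mannitol, chow non-perfused and sucrose non-perfused hearts. Neighbours in this order differed by more than the larger of their SDs only between chow glucose and sucrose glucose (0.605) and between chow non-perfused and sucrose non-perfused (0.615). Aqp7 ran from chow non-perfused through chow glucose and chow mannitol to sucrose non-perfused, sucrose mannitol and sucrose glucose hearts, so its 3 chow groups came before its 3 sucrose groups. The only step beyond the spread was the one from chow glucose to chow mannitol (0.12), and the last 3 groups lay within 0.05 of the next. Defb1 ran from chow non-perfused through chow glucose, chow mannitol, sucrose mannitol and sucrose non-perfused to sucrose glucose hearts. Its first step (0.97) and its last (0.94) exceeded the spread, while chow mannitol, sucrose mannitol and sucrose non-perfused hearts had nearly equal means. Ranges of all neighbours overlapped for each gene. This order includes the array alone on its slide. Without it sucrose mannitol hearts (n = 4) averaged -0.62 for Cyp2e1, below chow non-perfused hearts, 2.73 for Aqp7, the lowest of the 6 groups, and -5.42 for Defb1, above chow mannitol hearts.

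Fitted with slide as a block, the sucrose minus chow difference of Cyp2e1 was -0.62 on the log2 scale (SE 0.215) without perfusion, a 1.54-fold lower level. With mannitol it was -1.19 (SE 0.226), 2.28-fold lower, and with glucose -0.61 (SE 0.215), 1.53-fold lower. The mean over the 3 states was -0.81 (SE 0.127), or 1.75-fold. The mannitol difference minus the non-perfused difference was -0.57, with a 95% interval from -1.21 to 0.08 that includes 0. Without the slide term, which brings the array alone on its slide back in, the mannitol difference was -0.85. Diet and slide row cannot be told apart in the mannitol value of any of the 3 genes.

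Aqp7 had the smallest but most even diet difference. It was -0.39 (SE 0.087) without perfusion, -0.32 (SE 0.091) with mannitol and -0.34 (SE 0.087) with glucose, which is 1.31-fold, 1.25-fold and 1.27-fold lower in sucrose hearts. The mean over the states was -0.35 (SE 0.051). Its differences between states were at most 0.06, with 95% intervals from -0.20 to 0.32 for mannitol against non-perfused and from -0.21 to 0.29 for glucose against non-perfused. Intervals of this width do not show that the diet differences are alike.

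For Defb1 the fitted difference without perfusion was -1.67 (SE 0.32), on a group of sucrose hearts of which 2 of 5 were well above background. With normexp background correction it was -0.46, so its size depends on how values near background are treated. With glucose 2 of 5 chow hearts (mean -5.04) and 0 of 5 sucrose hearts (measured mean -6.62) were well above background, so the size of the difference is uncertain. With a floor under the sucrose values, chow hearts read 1.90-fold higher. The floor was, on each sucrose array, the higher of the probe's own signal and the lowest signal among probes well above background. This is no lower bound, since the chow mean also rests mostly on values not well above background. With normexp the glucose difference was -0.39. With mannitol the fitted difference was 0.15 (SE 0.336, 95% interval -0.55 to 0.84), so the name sucrose-lowered does not describe Defb1 in that state. The mannitol difference exceeded the non-perfused difference by 1.82 (95% interval 0.85 to 2.78), a value made of the contrasts that chose the gene and so given without a test. In that state chow hearts had 2 of 5 arrays well above background and sucrose hearts 1 of 5.

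Within the 4 slides that carried all groups, each state gave 4 sucrose minus chow differences per gene. These differences are parts of the contrasts that chose the genes, so their shared sign adds no support. They were below 0 in 11 of 12 cases for Cyp2e1, the exception being 0.26 without perfusion. For Aqp7 they were below 0 in 12 of 12, although the mannitol differences reached -0.002. For Defb1 they were below 0 in 10 of 12, with both exceptions in the mannitol hearts, where the differences ran from -0.30 to 0.82. Without perfusion the Defb1 differences ran from -3.26 to -0.23.

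**Figure D2:**
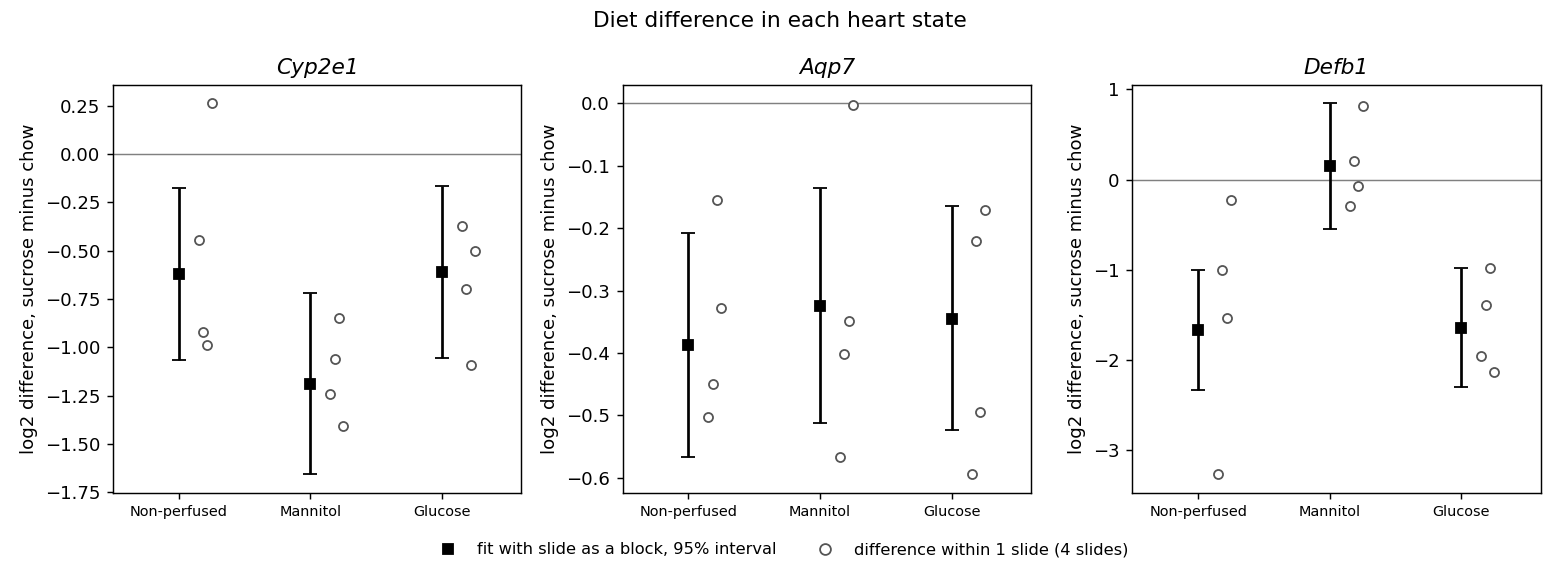
Log2 difference, sucrose minus chow (y axis), in each heart state (x axis) for Cyp2e1, Aqp7 and Defb1; squares are the fit with slide as a block and bars its 95% interval, open circles the differences within each of 4 slides. All squares lie below 0 except Defb1 with mannitol at 0.15; the Defb1 glucose value rests on sucrose arrays not well above background.

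In the mean of the 3 diet differences, 7 of 18333 genes (0.0382%) passed the threshold of limma's adjusted p of 0.05, 6 of them lower (0.0327%) and 1 higher. The 3 genes are among the 6; nothing is read from this, since the contrast chose them. Without perfusion and with glucose, limma called 0 genes, with 991 and 1342 genes at an unadjusted p under 0.05. With mannitol it called 1 gene (0.00545%), a probe without a symbol. The 4 other genes of the 7, named here because they are few, were Mt1, Acot1 and FQ220235, which were lower in sucrose hearts, and Bok, which was higher. Mt1, a metallothionein that binds zinc and copper, fell by 0.73 (SE 0.124, limma adjusted p 0.0387). Acot1, a cytosolic acyl-CoA thioesterase and PPAR alpha target, fell by 0.37 (SE 0.067, limma adjusted p 0.0422). These calls were not stable: Acot1 was called in 9 of 15 other settings and Mt1 in 12 of 15, and leaving out 1 array at a time kept Acot1 in 6 of 30 fits and Mt1 in 11 of 30.

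After perfusion, averaged over both diets, Cyp2e1 was higher than without perfusion, in both buffers. Cyp2e1 was 0.62 higher on the log2 scale (SE 0.156, 95% interval 0.30 to 0.94) after perfusion with mannitol than without perfusion, 1.54-fold, with a limma adjusted p of 0.00569. After perfusion with glucose it was 0.68 higher (SE 0.15, 95% interval 0.37 to 0.99), 1.60-fold, with a limma adjusted p of 0.00163. The differences were above 0 on 4 of 4 slides in each case, from 0.14 to 1.09 with mannitol and from 0.44 to 1.02 with glucose. These are 2 calls against a background in which 21.6% of all genes tested were called with mannitol (9.27% higher, 12.4% lower) and 24.2% with glucose (10.8% higher, 13.4% lower), so a call by itself does not set Cyp2e1 apart. The mannitol call was lost without the 4 arrays of wide control spots (0.54, limma adjusted p 0.0557) and on the authors' deposited values (0.62, limma adjusted p 0.0945); over 15 other settings the adjusted p ran from 0.00338 to 0.0945.

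By diet, the Cyp2e1 difference between mannitol and non-perfused hearts was 0.90 (SE 0.215) in chow hearts, whose arrays share a slide row, and 0.34 (SE 0.226) in sucrose hearts. With glucose it was 0.68 (SE 0.212) in chow and 0.69 (SE 0.212) in sucrose hearts. These share arrays with the diet contrasts and are given without a test. Markers of other cells differed with perfusion beside Cyp2e1. All 10 macrophage markers were higher with both buffers (5 passed with mannitol and 4 with glucose, medians 0.30 and 0.32). All 7 atrial markers tested were lower (medians -0.49 and -0.64), but only 1 passed with each buffer. Over all genes tested, 21.6% passed with mannitol and 24.2% with glucose, so the atrial count is not above that share. Other lists had calls too. Of 8 fibroblast markers 3 rose with each buffer, and of 16 capillary endothelial markers 4 rose with mannitol and 5 with glucose, with none called lower in either list. The part of these cells in the Cyp2e1 and Aqp7 differences was not tested.

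Aqp7 fell by 0.20 (SE 0.063, 95% interval -0.34 to -0.07) with mannitol, 1.15-fold, with a limma adjusted p of 0.0217. The difference was below 0 on 4 of 4 slides. With glucose it was -0.08 (95% interval -0.20 to 0.05, limma adjusted p 0.402), a value that did not pass the test. The mannitol call was lost in 6 of 15 other settings, among them the fit without a slide term (-0.13, limma adjusted p 0.388) and quantile normalization (-0.17, limma adjusted p 0.0582), with adjusted p-values from 0.00754 to 0.723 over all 15. It was also lost on leaving out sucrose non-perfused replicate 2 (limma adjusted p 0.0587) or sucrose mannitol replicate 3.

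Defb1 is given without a test here, because it entered the table through the chow non-perfused group, against which the perfused hearts are set. Its averaged difference was -0.96 (SE 0.223) with glucose and -0.67 (SE 0.232) with mannitol, and it was below 0 on 4 of 4 slides in both. By diet, the glucose difference was -0.97 (SE 0.316) in chow hearts. In sucrose hearts it sets 2 of 5 arrays well above background against 0 of 5. With the same kind of floor under the glucose values, non-perfused hearts read 1.23-fold higher, which is no lower bound either. The mannitol difference was -1.57 (SE 0.32) in chow and 0.24 (SE 0.336) in sucrose hearts, so the averaged value below 0 came from chow hearts. With normexp background correction the averaged differences were -0.28 with glucose and -0.23 with mannitol.

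Between glucose and mannitol neither Cyp2e1 nor Aqp7 differed detectably. The difference was 0.06 for Cyp2e1 (95% interval -0.26 to 0.39, limma adjusted p 0.961) and 0.13 for Aqp7 (95% interval 0.00 to 0.26, limma adjusted p 0.863). For Defb1 it was -0.29 (SE 0.232), given without a test. Only 2 genes in all (0.0109%), Txnip and Zfp354c, passed this comparison, with 1048 at an unadjusted p under 0.05. Txnip, an inhibitor of thioredoxin known to respond to glucose, fell with mannitol (-0.45, SE 0.147, limma adjusted p 0.0296) and rose with glucose (0.63, SE 0.141, limma adjusted p 0.00196), both against non-perfused hearts.

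**Figure D3:**
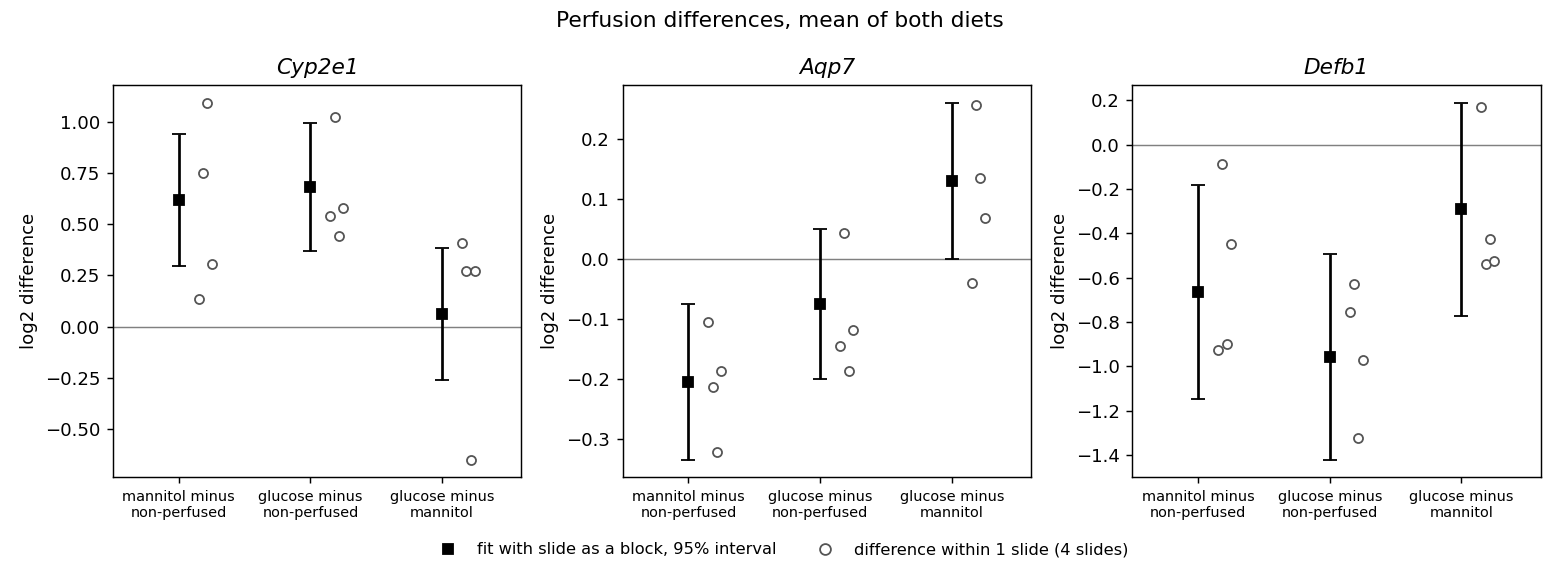
Log2 differences between heart states averaged over both diets (y axis) for 3 pairs of states (x axis); squares are the fit with slide as a block with its 95% interval, open circles the differences within each of 4 slides. Cyp2e1 lies above 0 in both perfused states (0.62 and 0.68) and Aqp7 lies at -0.20 with mannitol and -0.08 with glucose; the Defb1 values (-0.67 and -0.96) are descriptions of a probe mostly not well above background.

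Other cytochrome P450 genes did not pass the diet test. Of 43 on the array, 18 others than Cyp2e1 were tested, and none passed for the mean diet difference, which 0.0382% of all genes did. At an unadjusted limma p under 0.05 there were 5 of the 18, against 1626 of all 18333 genes. Of the 18, 9 were lower and 9 higher, and their median difference was 0.02 against -0.005 for all genes. With perfusion none of the 18 rose, where 9.27% of all genes rose with mannitol and 10.8% with glucose. Cyp1b1, a P450 of steroids and aromatic compounds, was the only one to pass, and it fell with glucose (-0.38, SE 0.133, limma adjusted p 0.0397). Of 31 partners of the P450 reaction and of aldehyde, epoxide and glutathione metabolism, none passed for diet (1 at an unadjusted p under 0.05, median -0.01). With mannitol 1 of the 31 rose and 5 fell, where 21.6% of all genes were called. With glucose 2 rose and 3 fell, where 24.2% of all genes were called. Por, the reductase that feeds electrons to the P450 enzymes, was picked out after its values were seen. Por was the 1 that rose with mannitol (0.25, SE 0.073, limma adjusted p 0.0148). It also rose with glucose (0.33, SE 0.07, limma adjusted p 0.00112). Its mean diet difference was -0.15 (SE 0.059, limma adjusted p 0.479).

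Among the other aquaporins, none of 8 tested passed for diet. At an unadjusted limma p under 0.05 there were 2 of the 8, against 1626 of all 18333 genes. The mean diet differences of the 8 ran from -0.42 to 0.11, with a median of -0.08. Aqp1, the water channel of capillary endothelium, was at -0.07 (SE 0.05) and Aqp4, a water channel of muscle and brain, at -0.11 (SE 0.048). Aqp8 and Aqp11 were at 0.05 (SE 0.063) and 0.11 (SE 0.098), Aqp2 and Aqp6 at -0.09 (SE 0.086) and -0.03 (SE 0.242), and Mip, the lens channel, at -0.31 (SE 0.353). Aqp5 was at -0.42 (SE 0.172) on a probe above background on 14 of 30 arrays. The other glycerol channels were dim: Aqp3 was well above background on 0 of 30 arrays and Aqp9 on 11 of 30. With glucose perfusion Aqp4 (-0.22, SE 0.057, limma adjusted p 0.00731) and Aqp5 (-0.65, SE 0.202, limma adjusted p 0.0224) fell. These 2 of 8 are a share near the 24.2% of all genes called with glucose, so nothing is read from it about aquaporins. With mannitol none of the 8 passed, where 21.6% of all genes did.

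Among genes that handle glycerol and glycerides, 13 changed with glucose perfusion and none passed for diet. The 23 tested had a median diet difference of -0.03, with 3 at an unadjusted p under 0.05, and Gk, the kinase that phosphorylates glycerol once it is in the cell, was at 0.02 (SE 0.07). With glucose 11 rose and 2 fell, where 24.2% of all genes were called, and with mannitol 4 rose and 2 fell, a share near the 21.6% of all genes. Picked out after their values were seen, Lipe, the hormone-sensitive lipase, rose by 0.62 (SE 0.117, limma adjusted p 0.000406) with mannitol, and Dgat2, which makes triacylglycerol, rose by 0.86 (SE 0.16, limma adjusted p 0.000303) with glucose.

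Defensins and other antimicrobial genes did not pass for diet either. Of 44 on the array 23 besides Defb1 were tested; the median of their mean diet differences was -0.02, 14 were lower and 9 higher, and 2 had an unadjusted p under 0.05. Among them were 11 beta-defensins, from Defb24 at -0.16 (SE 0.069) to Defb9 at 0.22 (SE 0.188). With glucose, 4 fell and 1 rose, a share near the 24.2% of all genes. The falls included S100a8 and S100a9, abundant proteins of neutrophils, and S100a9 fell by 3.74 (SE 0.31, limma adjusted p 3.08e-09). All 9 blood markers tested fell with both perfusions, with a median of -3.31 with mannitol and -3.74 with glucose. Averaged over both diets Defb1 was also lower in perfused hearts, but in sucrose hearts its mannitol difference was 0.24 (SE 0.336). The part of blood in the Defb1 differences was not tested. For diet, the blood markers had a median difference of -0.03, and none passed (1 at an unadjusted p under 0.05).

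Of 35 targets of the PPAR fatty acid receptors, 32 had a mean diet difference below 0 and 3 above, with a median of -0.14 against -0.005 for all genes, but only Acot1 passed. At an unadjusted p under 0.05 there were 20 of the 35, against 1626 of all 18333 genes tested. An example that did not pass is Pdk4, which inhibits pyruvate dehydrogenase (-0.42, SE 0.117, limma adjusted p 0.282). Ucp2, a mitochondrial carrier, went the other way (0.65, SE 0.134, limma adjusted p 0.116). The differences of these genes share the arrays that chose Cyp2e1 and Aqp7, and no test of the list was made.

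**Figure D4:**
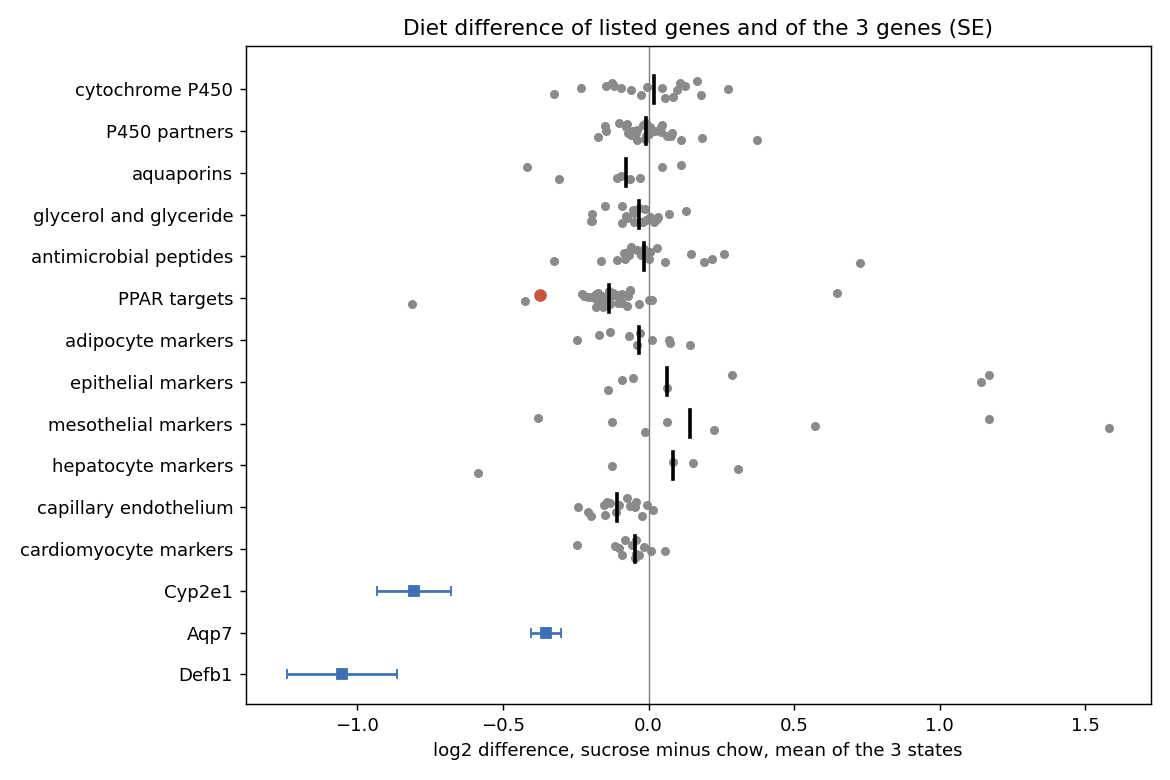
Mean sucrose minus chow difference on the log2 scale (x axis) of the tested genes of 12 lists (y axis, grey points; red where limma's adjusted p was under 0.05; black bar, median) and of the 3 genes (blue squares with SE). Cyp2e1 at -0.81 and Defb1 at -1.05 lie outside most listed genes, Aqp7 at -0.35 lies near Acot1 at -0.37, and Acot1 is the only red point. The 3 genes were chosen by this difference, so their distance from the listed genes was set by the choice and adds no support.

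Levels in whole ventricle cannot tell fewer cells of a type from less RNA per cell, and the markers of other cell types were read for that reason. Aqp7 is best known from adipocytes. The adipocyte markers Adipoq and Ucp1 were well above background on 0 of 30 arrays, Cidec on 1 and Lep on 7, while Cfd and Fabp4, which other cells also make, were above on 30 of 30. Plin1 was not matched to a probe. Of 10 adipocyte markers tested, none passed for diet (6 lower, 4 higher, 1 at an unadjusted p under 0.05, median -0.03); Cfd was at 0.08 (SE 0.102) and Fabp4 at -0.13 (SE 0.077). The summed linear level of these 10 ran from 63.7 to 85.9 times the array's 75th percentile in chow and from 66.7 to 83.0 in sucrose hearts without perfusion. It ran from 65.3 to 73.2 and from 65.5 to 72.6 with mannitol, and from 64.2 to 77.1 and from 62.0 to 80.8 with glucose, so the ranges of the diets overlapped in each state.

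Capillary endothelial markers had differences on the same side of 0 as Aqp7. Of 16 tested none passed for diet (3 at an unadjusted limma p under 0.05, against 1626 of all 18333 genes). In sucrose hearts 15 of these markers were lower, with a median of -0.11. Their summed level ran from 179 to 209 in chow and from 161 to 187 in sucrose hearts without perfusion. It ran from 191 to 217 and from 162 to 206 with mannitol, and from 185 to 227 and from 151 to 197 with glucose. The part of these cells in the Aqp7 difference was not tested. Of 13 cardiomyocyte markers, 11 were lower, with a median of -0.05.

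Epithelial and mesothelial markers were read because such cells make defensins. None of 7 epithelial or 8 mesothelial markers tested passed for diet, with 1 of each at an unadjusted p under 0.05. Of the epithelial markers 3 were lower and 4 higher in sucrose hearts (median 0.07), and of the mesothelial 3 were lower and 5 higher (median 0.14). Differences on the higher side included Krt18, an epithelial keratin (1.14, SE 0.509), Krt19, a keratin of epithelium and mesothelium (1.17, SE 0.692), and Msln, the mesothelial surface protein mesothelin (1.58, SE 0.689), while Upk1b, a uroplakin, was at -0.38 (SE 0.478); none of them passed. The summed mesothelial level ran from 3.73 to 9.24 in chow and from 3.46 to 9.97 in sucrose hearts without perfusion. Hepatocyte markers, read because Cyp2e1 is a liver gene, had 5 members tested and none that passed (1 at an unadjusted p under 0.05); their summed level ran from 8.63 to 10.4 in chow and from 7.88 to 14.6 in sucrose hearts without perfusion.

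Across 29 arrays, without the array alone on its slide and with slide means removed, the 3 genes did not follow each other closely. The correlation was 0.34 between Cyp2e1 and Aqp7, 0.11 between Cyp2e1 and Defb1 and 0.62 between Aqp7 and Defb1. These arrays share their diets and states, and after removal of the group means the values were -0.07, 0.25 and 0.16. The genes most like Cyp2e1 were Acot1 (r = 0.80 over 29 arrays, 0.28 after removal of group means), Polr2d, a subunit of RNA polymerase II (0.74 and 0.34), Rab30, a Golgi GTPase (0.74 and 0.17), Nfic (0.74 and 0.33) and Pigm (0.71 and 0.30). For Aqp7 they were Dhdds, an enzyme of dolichol synthesis (0.79 and 0.41), Me1, the cytosolic malic enzyme (0.69 and 0.24), Myo5b (0.67 and 0.35), Stard8 (0.66 and 0.63) and Plin5, a lipid droplet protein of oxidative tissue (0.65 and 0.63). Stard8 and Plin5 thus followed Aqp7 nearly as closely among hearts of 1 group as over all groups. For Defb1 they were Kcna2, a potassium channel (0.70 and 0.48), Grhpr (0.68 and 0.56), Rxrg, a retinoid receptor (0.68 and 0.14), Slc25a34 (0.66 and 0.22) and Yme1l1 (0.66 and 0.57). All are descriptions over arrays that share slides and groups, chosen as the highest of the tested genes with a symbol, and Defb1's rest mostly on values not well above background.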

How the data were processed

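The deposited scanner tables of 30 arrays hold a processed signal, an intensity that per the file headers is background-subtracted and detrended within each array; the headers name Feature Extraction 11.0.1.1 and the submitters' processing notes 10.3. The authors' deposited series table holds log2 values whose scaling between arrays is not known (column medians 7.23 to 7.24); it served as an alternative. Spots of 1 probe were averaged after flagged spots were left out, log2 was taken and the 75th percentile of each array subtracted. The brightest probe stood for a gene. A gene was tested if some group had it well above background on 4 or more of its 5 arrays: 18333 of 26785, of which 11304 had a symbol. Differences come from limma 3.58.1 in R 4.3.3, with 1 mean per group, slide as a fixed block (slide from the file names) and Benjamini-Hochberg adjustment over all genes tested. The fit was tested on simulated data. The series' design text calls the replicates biological. Alternatives were other treatments of slide, other background corrections and normalizations, other filters on dim genes, the mean of a gene's probes, limma's trend and robust options, fewer groups, and leaving out arrays.

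Replicate numbers were not treated as pairs in the main fit. Residuals from group means correlated at -0.04 on average between arrays of equal number and at 0.20 between arrays of 1 slide. Arrays of equal number lay mostly on different slides, so these values cannot exclude a pairing. The 3 genes and the lists were chosen with earlier results of these data known. Genes named beside the 3 were the 5 most like each by correlation, list members that passed for the mean diet difference, the defining adipocyte markers and the aquaporins above background; others are said to be picked after their values were seen or stand as examples of a list.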

Additional observations from a re-analysis of the deposited data

How the results depend on the processing

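The diet differences of Cyp2e1 and Aqp7 stayed below 0 in all 3 states under the 11 other settings and under each of 30 fits without 1 array. Those of Defb1 did so without perfusion and with glucose. All these fits reuse the arrays and contrasts that chose the 3 genes, so the stable signs add no support. They show only how far the sizes move with the processing. Dropping sucrose mannitol replicate 1 while slide stays a block returns the main fit, so it checks nothing. With mannitol Defb1 ran from -0.30 (the authors' deposited values) to 0.25, and from -0.04 to 0.38 without 1 array. Normexp background correction, whose offset of 50 exceeds most Defb1 signals, gave Defb1 -0.46 without perfusion, -0.39 with glucose and -0.26 on average. The authors' deposited values gave Aqp7 -0.52 with mannitol, where the median of all genes lay at -0.18.

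The rise of Cyp2e1 with glucose passed in all 15 other settings, none of which separates glucose perfusion from slide row. Some of the 15, such as the mean of a gene's probes or other filters, could not change the size of this rise. With mannitol it missed on the authors' values (0.62, limma adjusted p 0.0945) and when the 4 arrays of wide control spots were dropped (0.54), a setting chosen after seeing the data, like the removal of the lone array together with the slide term. The mannitol fall of Aqp7 missed with no slide term (-0.13), also without the lone array (-0.19), with slide as a random block (-0.15), with quantile normalization (-0.17), normexp (-0.12) and the authors' values (-0.11), and ran from -0.24 to -0.17 without 1 array. The mannitol difference of Defb1, described without a test, was -0.77 with no slide term, -0.65 also without the lone array, -0.48 with quantile normalization, -0.73 on the authors' values, -0.67 with no filter or with trend and robust options, -0.68 with only the groups compared, -0.23 with normexp and -0.79 to -0.53 without 1 array. Its glucose difference was -0.95 on the authors' values and -0.28 with normexp. The cause was not tested.

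Counts of called genes moved as follows. For the mean diet difference 1 gene passed with no slide term and without the 4 arrays, 2 on the authors' values and with no filter, 3 with no slide term and no lone array, and 0 to 7 without 1 array, where every array moved it but chow non-perfused 2 and sucrose mannitol 1, 4 and 5. For diet with mannitol 0 passed in the 6 settings that moved it, and 0 to 3 without 1 array (any chow mannitol array, or sucrose mannitol 2 to 5); for diet with glucose 1 passed with quantile normalization, 2 without the 4 arrays, and 0 to 2 without 1 array (chow non-perfused 1 and 2, sucrose non-perfused 2, chow glucose 2, sucrose glucose 4). The authors' values gave 1000 calls with mannitol, 1307 with glucose and 0 between them, where 9 other settings gave 1 and fits without 1 array 1 to 2 (1 without chow mannitol 4 or 5, sucrose mannitol 3, chow glucose 2, 3 or 4, or sucrose glucose 2 or 3).

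With the replicate number as a block beside slide the calls of Cyp2e1 and Aqp7 did not change (Aqp7 with mannitol -0.20, limma adjusted p 0.0273). For the mean diet difference 7 genes passed, but not the same 7: Acot1 (limma adjusted p 0.0833) and Bok (0.0674) were lost. Defb1 had no value among genes above background on all arrays. Depth of signal limits Defb1 alone, with 11 of 30 arrays well above background.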

Other observations

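Of 23 regulators of lipid and glucose genes tested none passed for the mean diet difference (median -0.02, 3 at an unadjusted p under 0.05). With mannitol 5 rose and 4 fell, where 21.6% of all genes were called, and with glucose 6 rose and 2 fell, where 24.2% were. Picked after their values were seen, Irs2, which carries the signal of insulin inside the cell, rose by 3.33 (SE 0.179, limma adjusted p 4.13e-12) with mannitol and by 3.43 (SE 0.173, limma adjusted p 8.19e-13) with glucose, and Cebpb, a transcription factor of acute responses, rose by 1.25 (SE 0.108, limma adjusted p 7.65e-09) and 1.58 (SE 0.103, limma adjusted p 6.12e-11). Ppara, the PPAR of fatty acid oxidation, had a mean diet difference of 0.15 (SE 0.121, limma adjusted p 0.742).

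Bok, a member of the Bcl-2 family and the only gene called higher in sucrose hearts, was at 0.40 (SE 0.074, limma adjusted p 0.0453); it passed in 7 of 15 other settings and in 4 of 30 fits without 1 array.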
